A study of Mus musculus with 15 samples.

Results

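Heat shock proteins and their cochaperones are the folding machinery of the cell, and 68 genes of that machinery were followed in striatum, a basal ganglia nucleus made mostly of medium spiny neurons. The genes were taken by symbol: Hsp90, Hspa, Hspb, Hspd, Hspe, Hsph, DnaJ (A, B and C) and Bag1 to Bag6 names, plus Cryab and Hsf1. They make 68 of the 15569 genes of the table, or 0.437%. The groups were pups of dams exposed during gestation to aerosols of paraquat, a redox-cycling herbicide (n = 3 libraries), of TiO2 nanoparticles (n = 4) or of a mixture of both (n = 4), and untreated controls (n = 4). All pups were C57Bl/6J mice at postnatal day 14, and no library carries a transgene or mutant allele in its labels. Dose, length of exposure, litter, sex and dissection are not given in the labels. Nor do they say that each library is another animal, so the p-values reflect spread among libraries and that spread could be technical.

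Chaperones work as a relay. HSP70 proteins bind exposed hydrophobic stretches of a client and release them in an ATP cycle that DnaJ proteins start and BAG proteins, as exchange factors, end, and HSP90 takes over late-folding clients such as kinases and receptors. Small heat shock proteins hold unfolded clients without ATP, HSP60 with HSP10 folds proteins inside mitochondria, and Hspa5 with Hsp90b1 does so in the endoplasmic reticulum. Under proteotoxic stress the factor HSF1 binds heat shock elements, inverted repeats of GAA units, and raises the inducible members, while many DnaJ and HSP70 members are constitutive. In brain, Cryab is abundant in oligodendrocytes and astrocytes, and Dnajc5 and Dnajc6 serve synaptic vesicles and clathrin uncoating.

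By family the members were 3 HSP90, 11 HSP70 or HSP110, 2 HSP60 or HSP10, 4 small heat shock, 4 DnaJ class A, 10 class B, 25 class C and 6 BAG genes, Hsf1, and the pseudogenes Hspa9-ps1 and Hspd1-ps3, which the name pattern also takes. Hspb11 is counted with the small heat shock genes by its name alone. It encodes a subunit of the intraflagellar transport complex of cilia. Hspa1a, Hspa1b and Hspb1, the best known inducible genes, have no row among the 15569 and are not analysed here. No member stood at 0 in any library, the lowest single value being 4.34 for Dnajb3 in mixture library 2, and all 68 passed the filter on low values. All 12 markers of medium spiny neurons were in the table and above 0, summing to 84748 to 94753 in paraquat, 92029 to 100512 in TiO2, 83750 to 97848 in mixture and 97819 to 106565 in control libraries. Values are normalised read counts, read counts divided by a size factor of each library. Total depth was 8690925 to 14207513 reads in the 11 libraries where whole reads could be recovered and 8911693 to 9655747 by the same division in the other 4. The members together held 0.431% ± 0.0028 of the signal in paraquat pups, 0.429% ± 0.0082 in TiO2 pups, 0.432% ± 0.011 in mixture pups and 0.419% ± 0.012 in control pups (SD).

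Promoter sequences are shown for 4 members, because heat shock elements in them are the textbook route of induction and because the 4 cover a called riser (Bag3), 2 called fallers (Dnaja1 and Dnaja2) and an uncalled gene that holds the 3-unit element (Hspe1). They come from RefSeq on GRCm38.p6, where 52 members matched and 16, Cryab, Hsp90ab1, Hspa8 and Hsf1 among them, did not. Each run is the 250 bases before the gene's start, 5′ to 3′ on the gene's strand, and capitals mark matches to the element, searched on both strands as GAANNTTC or TTCNNGAA for 2 units. Hspe1 lies at chr1:55087898-55088147 (plus strand), Dnaja1 at chr4:40722218-40722467 (plus strand), Dnaja2 at chr8:85555362-85555611 (minus strand) and Bag3 at chr7:128523333-128523582 (plus strand).
Hspe1: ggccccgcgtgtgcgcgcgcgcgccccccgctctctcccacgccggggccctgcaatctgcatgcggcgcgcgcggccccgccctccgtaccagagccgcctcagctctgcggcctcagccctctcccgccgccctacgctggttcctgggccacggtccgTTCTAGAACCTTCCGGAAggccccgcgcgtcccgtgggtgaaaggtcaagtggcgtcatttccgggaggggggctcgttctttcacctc
Dnaja1: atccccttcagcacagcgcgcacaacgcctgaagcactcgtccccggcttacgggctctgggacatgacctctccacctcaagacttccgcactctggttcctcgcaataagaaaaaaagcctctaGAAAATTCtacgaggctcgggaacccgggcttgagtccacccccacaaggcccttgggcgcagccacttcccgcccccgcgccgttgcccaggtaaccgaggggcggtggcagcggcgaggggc
Dnaja2: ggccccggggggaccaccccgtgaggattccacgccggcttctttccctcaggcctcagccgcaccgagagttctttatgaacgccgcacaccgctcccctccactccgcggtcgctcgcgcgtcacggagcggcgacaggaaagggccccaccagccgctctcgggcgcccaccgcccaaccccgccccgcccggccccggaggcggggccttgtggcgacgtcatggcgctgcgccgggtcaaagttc
Bag3: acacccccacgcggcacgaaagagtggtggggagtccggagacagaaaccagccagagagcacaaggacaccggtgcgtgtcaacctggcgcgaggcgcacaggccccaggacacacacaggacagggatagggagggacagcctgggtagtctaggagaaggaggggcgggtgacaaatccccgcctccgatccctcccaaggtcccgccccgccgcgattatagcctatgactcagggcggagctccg
Overlapping matches in Hspe1 run from −89 to −72 before the start, a stretch of 18 bases that also holds both forms of 3 units (GAANNTTCNNGAA and TTCNNGAANNTTC). The window of Hspd1, which is transcribed away from Hspe1 on the other strand, covers the same stretch. Dnaja1 has a single 2-unit match from −124 to −117, Dnaja2 has none, and Bag3 has none before the start and 1 at 43 to 50 after it. These positions are relative to the RefSeq start. The GENCODE model of Dnaja1, used for the other gene properties here, begins at chr4:40722150. By that model the whole printed run of Dnaja1, with its match, lies inside the gene.

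In windows of 250 bases before to 50 after the start, 12 of the 52 members (23.1%) held the 2-unit element, against 17.0% of 27025 genes. The 3-unit form was in 4 members (7.69%), Hspd1, Hspe1, Dnajb6 and Hsph1, against 0.662% of all genes. None of these 4 genes passed the test in any exposure against control by limma. A match is a run of letters and not a bound site.

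Cryab, which encodes the small heat shock protein alphaB-crystallin, was the member with the smallest p in these data. It read 480, 714 and 653 in paraquat pups, 357, 517, 526 and 448 in TiO2 pups, 522, 424, 501 and 354 in mixture pups and 262, 285, 227 and 345 in control pups. Every exposed library lay above all 4 controls, though TiO2 library 1 and mixture library 4 only just cleared control library 4. The log2 fold change against control was 1.13 ± 0.17 for paraquat (SE, adjusted p = 0.000697 by limma), a 2.19-fold higher level. For TiO2 it was 0.72 ± 0.16 (adjusted p = 0.0106) and for the mixture 0.69 ± 0.16 (adjusted p = 0.0386). The paraquat call held in every alternative, whereas the TiO2 call ended without TiO2 library 3 (adjusted p = 0.0586) and the mixture call ended in several (adjusted p up to 0.132, without mixture library 1, 2 or 3, or control library 1, 2 or 3, with a GC correction and with the replicate block).

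**Figure D1:**
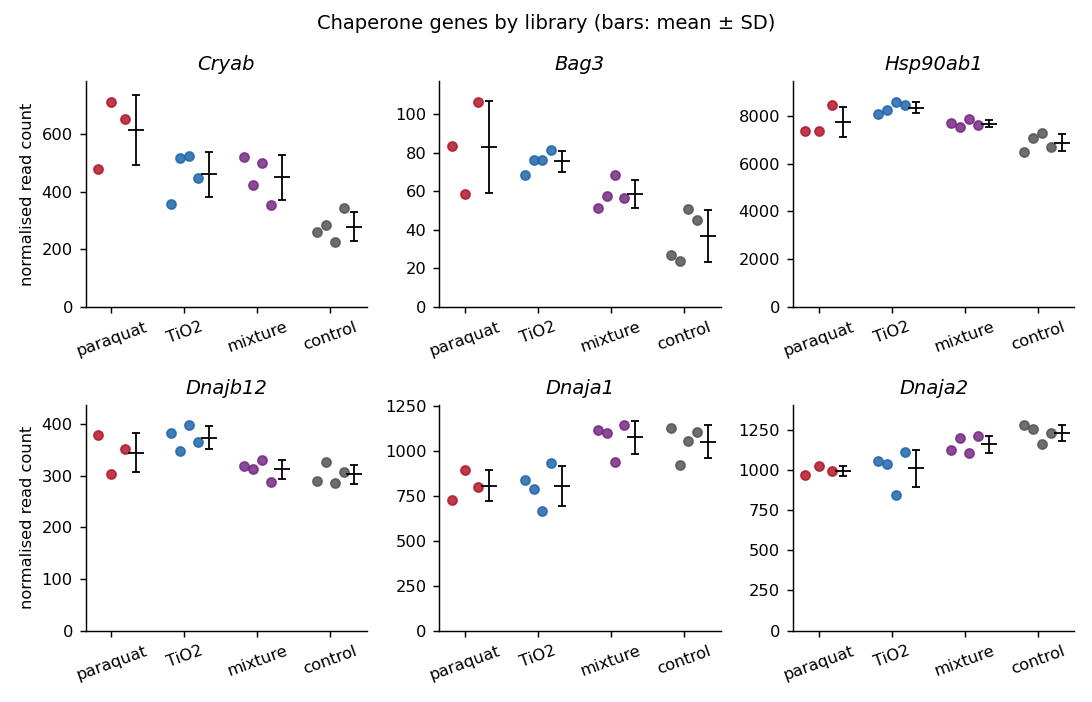
Normalised read counts of 6 chaperone genes in every library (points) with the mean and SD of each group (bars), on linear axes that start at 0. Cryab and Bag3 lie above control in all 11 exposed libraries, while Dnaja1 and Dnaja2 are low after paraquat and after TiO2 and stand near control in the mixture.

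Oligodendrocyte markers moved in the same direction as Cryab. Of 11 such genes (Mbp, Mog, Mag, Mobp and others), 9 were called higher in paraquat pups, with a median log2 fold change of 0.89, 1 in TiO2 pups (median 0.49) and 0 in mixture pups (median 0.36, with 4 of 11 at an unadjusted p under 0.05). Their summed signal was 61469 to 66765 in paraquat, 38027 to 61377 in TiO2, 31156 to 55183 in mixture and 24922 to 39586 in control libraries. Astrocyte markers summed to 48582 to 59433 in paraquat, 54521 to 58475 in TiO2, 48492 to 59961 in mixture and 48749 to 55118 in control libraries, with 2, 3 and 0 of 10 called higher (in the mixture 1 had an unadjusted p under 0.05). Markers of cortical glutamatergic neurons summed to 1844 to 5771 in paraquat, 1319 to 2892 in TiO2, 2685 to 4579 in mixture and 950 to 1733 in control libraries. Of these 10 genes, 4, 0 and 0 were called higher, with medians of 1.02, 0.48 and 1.64 for paraquat, TiO2 and mixture. In the mixture 9 of the 10 had an unadjusted p under 0.05 by limma. Of the 12 medium spiny neuron markers, 4, 1 and 0 were called lower, with medians of −0.21, −0.06 and −0.13. The part of these cells in the result was not tested. In bulk tissue more or fewer cells of a type cannot be told apart from more or less RNA per cell. Over the 15 libraries, the 5 genes of the table whose log2 levels ran most like Cryab were Mob3b (Pearson r = 0.943), Tmem108 (0.931), Ccdc136 (0.922), Cnksr3 (0.919) and the myelin gene Mobp (0.908), a description that includes the differences between groups they share.

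Bag3, the cochaperone that links HSP70 to selective autophagy and partners with Hspb8, was the other member that rose clearly. Its values were 83.4, 58.9 and 107 in paraquat pups, 68.5, 76.3, 76.3 and 81.5 in TiO2 pups, 51.5, 57.5, 68.7 and 56.6 in mixture pups and 26.9, 23.7, 51.1 and 45.2 in control pups. All 11 exposed libraries exceeded the highest control, mixture library 1 by less than 1 unit, and the 4 controls were themselves the most variable of any member (CV 36.6%, against a median of 8.15%). The log2 fold change was 1.18 ± 0.22 for paraquat (adjusted p = 0.0022) and 1.09 ± 0.21 for TiO2 (adjusted p = 0.00273), both called in every alternative. For the mixture it was 0.72 ± 0.21 and missed the threshold (adjusted p = 0.0892), passing it without control library 3 (0.0292) and with the replicate block (0.0277).

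Hspb8, the small heat shock protein that acts with Bag3, did not pass the test against control. Its level was 67.5, 31.5 and 52.0 in paraquat pups, 38.4, 59.98, 46.2 and 34.8 in TiO2 pups, 27.7, 28.2, 33.3 and 33.9 in mixture pups and 35.2, 33.0, 33.0 and 39.3 in control pups. Within the paraquat and TiO2 groups the libraries were split, with 1 or more near control and others well above it. Its log2 fold change was 0.44 for paraquat (adjusted p = 0.202), 0.32 for TiO2 (0.368) and −0.19 for the mixture (0.783), and without paraquat library 2 the paraquat value was 0.74 (adjusted p = 0.0343). Hspb6 had log2 fold changes of 0.15, 0.33 and 0.09 for paraquat, TiO2 and mixture and Hspb11, grouped here by name only, of −0.34, 0.01 and −0.15, none of them called.

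Dnaja1 and Dnaja2, class A DnaJ proteins that deliver unfolded clients to the cytosolic HSP70 Hspa8, were lower after either single exposure. Dnaja1 read 727, 896 and 799 in paraquat pups, 839, 790, 665 and 933 in TiO2 pups, 1119, 1101, 940 and 1143 in mixture pups and 1127, 922, 1055 and 1105 in control pups. The paraquat libraries lay below all controls, TiO2 library 4 overlapped control library 2, and the mixture overlapped control. The log2 fold change was −0.38 ± 0.10 for paraquat (adjusted p = 0.0229), −0.39 ± 0.10 for TiO2 (0.0171) and 0.03 ± 0.10 for the mixture (0.94).

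Dnaja2 was at 966, 1024 and 992 in paraquat pups, 1055, 1035, 845 and 1109 in TiO2 pups, 1124, 1201, 1105 and 1211 in mixture pups and 1278, 1255, 1164 and 1229 in control pups. Both single exposures lay below every control, by 19.2% for paraquat (log2 −0.31 ± 0.09, adjusted p = 0.0236) and 18.3% for TiO2 (log2 −0.29 ± 0.08, adjusted p = 0.0264). The mixture overlapped control (log2 −0.09 ± 0.08, adjusted p = 0.725). These falls are small and rest on few libraries. The paraquat call of Dnaja1 ended without paraquat library 1 or 3 or control library 1 or 4 (adjusted p up to 0.129), its TiO2 call without TiO2 library 2 or 3 or control library 1 or 4 (up to 0.0777), and both calls of Dnaja2 ended with a GC correction (0.089 and 0.0736) and its TiO2 call with only the groups compared (0.0555). The calls of Dnaja2 also ended without paraquat library 1 or 3 or control library 1 for paraquat (up to 0.0928), and without TiO2 library 2 or 3 or control library 1 or 4 for TiO2 (up to 0.115). The other class A genes, Dnaja3 and Dnaja4, had log2 fold changes of −0.11 and 0.02 for paraquat, −0.09 and −0.24 for TiO2 and −0.08 and −0.15 for the mixture, none called.

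Hsp90ab1, the constitutive cytosolic HSP90 and the most abundant member, read 7373, 7363 and 8452 in paraquat pups, 8057, 8259, 8598 and 8453 in TiO2 pups, 7685, 7532, 7872 and 7625 in mixture pups and 6467, 7056, 7271 and 6704 in control pups. No exposed library fell within the control range. The difference from control was called for TiO2 alone (log2 0.28 ± 0.07, adjusted p = 0.0123, or 0.0522 without control library 1), with log2 values of 0.17 ± 0.07 for paraquat (adjusted p = 0.132) and 0.16 ± 0.07 for the mixture (0.296), and the exposures were not shown to differ in it. Hsp90aa1, the inducible HSP90, read 63.5, 72.0 and 68.5 in paraquat pups, 69.5, 51.9, 57.2 and 70.6 in TiO2 pups, 70.3, 67.3, 64.5 and 74.0 in mixture pups and 88.1, 53.7, 77.7 and 91.4 in control pups. Control library 2 was low and the other 3 lay above every exposed library, with log2 fold changes of −0.16, −0.30 and −0.14 for paraquat, TiO2 and mixture, none called. Without control library 2 the TiO2 difference passed the test (adjusted p = 0.0447). Dnajb12, a class B DnaJ anchored in the endoplasmic reticulum membrane, read 378, 303 and 352 in paraquat pups, 383, 347, 397 and 366 in TiO2 pups, 319, 313, 330 and 287 in mixture pups and 290, 326, 286 and 308 in control pups. The 4 TiO2 libraries lay above every control (log2 0.30 ± 0.09, adjusted p = 0.0365), a call lost with only the groups compared (0.0543), with a GC correction (0.0906) or without TiO2 library 1 or 3 or control library 1, 3 or 4 (up to 0.112).

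Counted over the family, 4 of 68 members passed the test for paraquat (5.88%), 2 higher (Cryab and Bag3) and 2 lower (Dnaja1 and Dnaja2), against 10.4% of all genes tested, 6.34% higher and 4.06% lower. For TiO2 6 of 68 passed (8.82%), 4 higher (Bag3, Cryab, Hsp90ab1 and Dnajb12) and 2 lower (Dnaja1 and Dnaja2), against 6.4% of all genes, 4.3% higher and 2.1% lower. For the mixture Cryab alone passed, as higher (1.47%), against 1.19% of all genes, 1.12% higher and 0.0707% lower. The share of members was below that of the table for paraquat and close to it for TiO2 and the mixture, and the median log2 fold change of the members was −0.03 (paraquat), −0.06 (TiO2) and 0.01 (mixture), against −0.01 for all genes in each. The 3 comparisons share the 4 control libraries, so their values are set side by side and not counted as separate evidence. Groups whose ranges did not overlap with control numbered 13 members for paraquat (19.1%, against 21.2% of all genes), 12 for TiO2 (17.6%, against 12.5%) and 4 for the mixture (5.88%, against 7.75%).

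**Figure D2:**
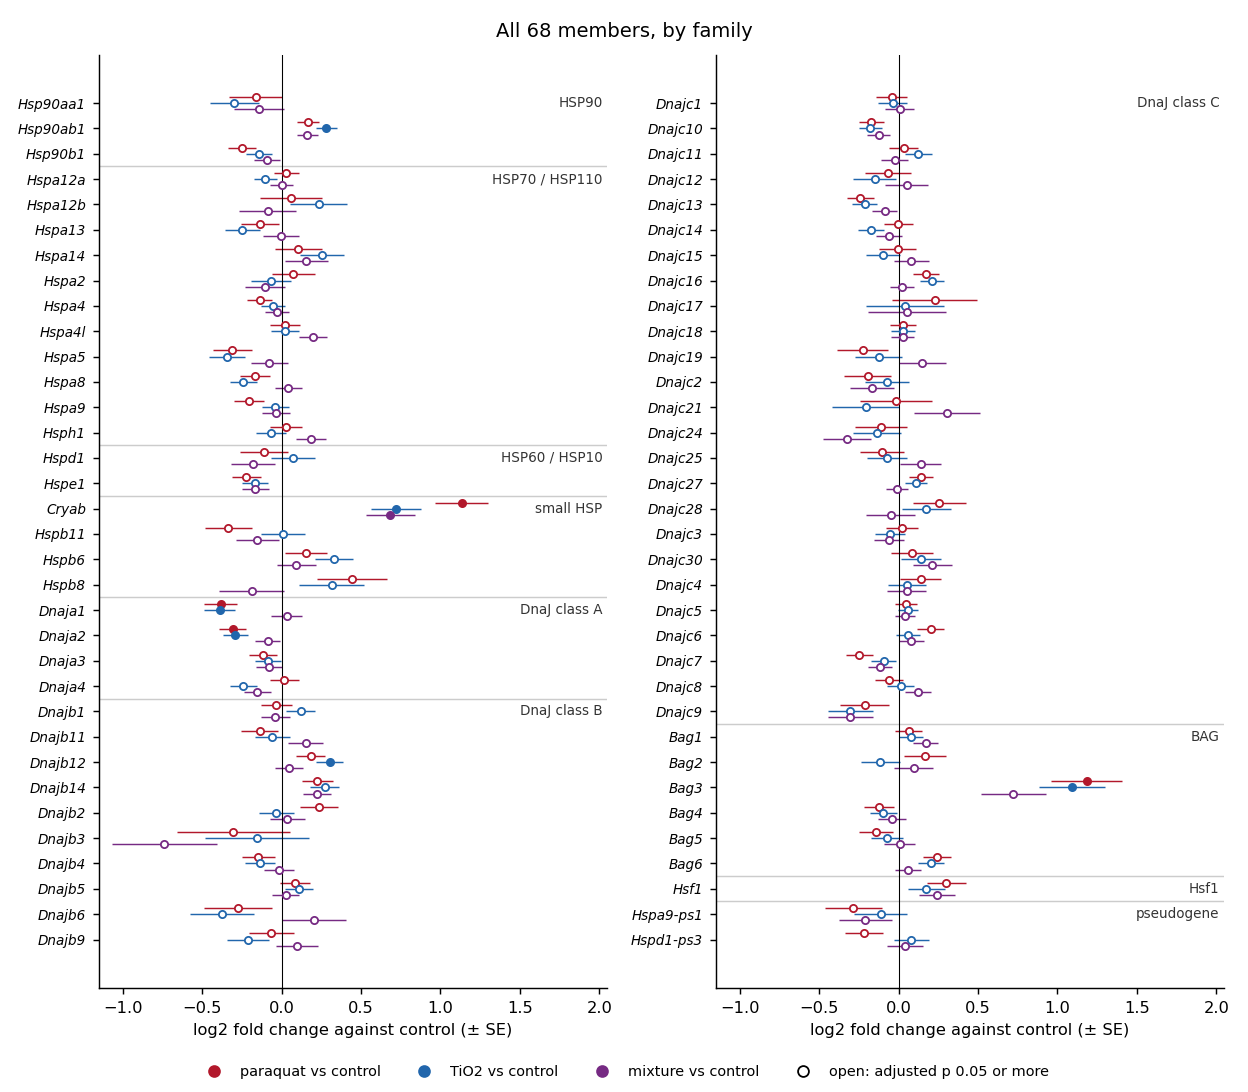
Log2 fold change against control with its standard error for each of the 68 members, by family, in paraquat (red), TiO2 (blue) and mixture (purple) pups, where filled points have an adjusted p under 0.05. Apart from Cryab, Bag3 and the imprecise Dnajb3 and Hspb8, the estimates lie close to 0.

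Most of the machinery showed no difference that could be called. Uncalled members had log2 estimates within 0.5 of 0 for 64 of 64 in paraquat, 62 of 62 in TiO2 and 65 of 67 in the mixture, where Bag3 and Dnajb3 lay outside, at a median SE of 0.105, 0.103 and 0.0971. Dnajb3, the lowest of the expressed members, had a mixture value of −0.74 ± 0.33 (adjusted p = 0.352) with values of 18.8, 4.34, 13.5 and 13.4 in mixture pups and 23.8, 23.7, 13.8 and 17.7 in control pups. Simulated data for the paraquat comparison gave 43.3% of genes changed 1.5-fold and 97.0% of those changed 2-fold back as calls. Smaller changes, such as the called fall of Dnaja1, were not simulated. Changes were set only in genes above a control level that Bag3, Hspb8 and Dnajb3 do not reach. The same spread was set for every gene, so these shares do not cover low or variable members.

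The factor Hsf1 itself read 316, 263 and 310 in paraquat pups, 278, 229, 342 and 246 in TiO2 pups, 277, 265, 312 and 283 in mixture pups and 241, 200, 271 and 251 in control pups. Its groups overlapped with control throughout, with log2 fold changes of 0.30 ± 0.12 for paraquat (adjusted p = 0.117), 0.17 ± 0.11 for TiO2 (0.372) and 0.24 ± 0.11 for the mixture (0.383). A heat-response set of 14 genes had 11 in the table, namely Hsph1, Dnajb1, Cryab, Hspb8, Bag3, Hsp90aa1, Dnaja1, Hspa4l, Hspd1, Hspe1 and Hspa8, the last of which is largely constitutive. Of these 11, Cryab and Bag3 rose and Dnaja1 fell after paraquat and after TiO2 (27.3% called in each, against 10.4% and 6.4% of all genes), and Cryab rose after the mixture (9.09%, against 1.19%). The median log2 fold changes of the set were −0.03, 0.02 and 0.03, and its members were chosen with earlier results of these data known.

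The other genes of the set gave no call in any exposure. Hsph1, the HSP110 exchange factor, read 768, 878 and 736 in paraquat pups, 713, 786, 684 and 792 in TiO2 pups, 814, 897, 884 and 947 in mixture pups and 690, 665, 884 and 896 in control pups, all overlapping control. Dnajb1, the HSP70 partner that is induced by heat in most cells, had log2 fold changes of −0.03, 0.12 and −0.04 for paraquat, TiO2 and mixture. For Hspa4l, an HSP110 relative, they were 0.02, 0.02 and 0.20.

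In the cytosolic HSP70 group, Hspa8, the constitutive form that strips clathrin from vesicles with Dnajc6, read 566, 520 and 575 in paraquat pups, 456, 525, 583 and 548 in TiO2 pups, 692, 580, 669 and 625 in mixture pups and 558, 671, 627 and 635 in control pups. It overlapped control in every exposure, with log2 values of −0.17 ± 0.09 (adjusted p = 0.256), −0.24 ± 0.09 (0.092) and 0.04 ± 0.09 (0.898) for paraquat, TiO2 and mixture. Hspa4, another HSP110, had −0.14, −0.06 and −0.03 and the testis-enriched Hspa2 had 0.08, −0.07 and −0.10. Bag1, the exchange factor that brings HSP70 to the proteasome, had 0.06, 0.08 and 0.17, none called. Bag6, which guards tail-anchored proteins, read 913, 807 and 813 in paraquat pups, 764, 888, 877 and 760 in TiO2 pups, 837, 719, 730 and 696 in mixture pups and 648, 728, 749 and 730 in control pups, so that both single exposures stood wholly above control without a call (log2 0.24 and 0.20, adjusted p = 0.0789 and 0.135). With a GC correction these values were 0.02 and 0.04.

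A list of 9 members of the endoplasmic reticulum gave no call. The list was chosen by hand and need not hold every member of that organelle. It leaves out Dnajb12, called higher for TiO2, Dnajb14, Dnajc14, Dnajc16 and Dnajc18, all of that organelle's membrane. Dnajb12 had log2 fold changes of 0.18, 0.30 and 0.05 for paraquat, TiO2 and mixture. Those of Dnajb14 were 0.23, 0.27 and 0.22, those of Dnajc16 0.17, 0.21 and 0.02 and those of Dnajc18 0.03 in each. These genes went against the lean of the list, while Dnajc14 went with it (−0.0016, −0.17 and −0.06). Log2 estimates below 0 numbered 8 of 9 for paraquat (median −0.13), 9 of 9 for TiO2 (median −0.14) and 5 of 9 for the mixture (median 0.00), against 51.0%, 51.8% and 52.3% of all genes. With a GC correction they numbered 6, 8 and 4 of 9, with medians of −0.02, −0.07 and 0.02. None of the 9 reached an adjusted p of 0.05 by limma, and 3, 3 and 0 of the 9 had an unadjusted p under 0.05. Hspa5, the lumenal HSP70 also called BiP, read 1525, 1566 and 1346 in paraquat pups, 1298, 1492, 1327 and 1681 in TiO2 pups, 1502, 1817, 1727 and 1912 in mixture pups and 1487, 1593, 2212 and 2131 in control pups. Control libraries 3 and 4 were high and 1 and 2 were within the exposed range, and the log2 fold changes were −0.31 ± 0.12 (adjusted p = 0.115), −0.34 ± 0.12 (0.0791) and −0.08 ± 0.12 (0.859). Hspa5 passed the test for TiO2 with the replicate block (0.0263) and without TiO2 library 4 or control library 1 or 2 (0.0312 to 0.0411), and for paraquat without control library 1 (0.0479). Hsp90b1, the lumenal HSP90, read 1180, 1313 and 1066 in paraquat pups, 1252, 1328, 1258 and 1262 in TiO2 pups, 1140, 1307, 1361 and 1499 in mixture pups and 1364, 1385, 1402 and 1478 in control pups. Both single exposures lay wholly below the controls, and the mixture overlapped them. None was called, with log2 fold changes of −0.25 ± 0.09 for paraquat (adjusted p = 0.0651, or 0.0321 without paraquat library 2), −0.14 ± 0.08 for TiO2 (0.299) and −0.09 ± 0.08 for the mixture (0.714).

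Of 7 members listed as mitochondrial, 6 were below 0 in paraquat pups, 5 in TiO2 pups and 5 in mixture pups, against 51.0%, 51.8% and 52.3% of all genes. With a GC correction they numbered 6, 3 and 5 of 7. The list was chosen by hand and need not hold every mitochondrial member. It leaves out Dnajc30, also a mitochondrial J protein, whose log2 fold changes of 0.09, 0.14 and 0.21 went the other way. None of the 7 was called by limma, and 2, 0 and 0 had an unadjusted p under 0.05. Hspe1, the HSP10 lid of the mitochondrial chaperonin, read 500, 445 and 437 in paraquat pups, 477, 506, 442 and 485 in TiO2 pups, 488, 475, 445 and 507 in mixture pups and 596, 561, 506 and 488 in control pups. Its log2 fold changes were −0.22 ± 0.09 (adjusted p = 0.112), −0.17 ± 0.08 (0.222) and −0.16 ± 0.08 (0.435). Those of Hspd1, its HSP60 partner, were −0.11, 0.07 and −0.18 and those of Hspa9, the mitochondrial HSP70, −0.20, −0.04 and −0.04. Mitochondrially encoded transcripts held 17.8% of the signal in paraquat, 18.9% in TiO2, 19.9% in mixture and 21.0% in control pups. The part of that difference in the result was not tested.

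No member differed between exposures at an adjusted p under 0.05, where 1 gene of the whole table did for the mixture against paraquat (0.00643%) and none did for the mixture against TiO2 or for paraquat against TiO2 (0.0%). At an unadjusted p under 0.05 there were 11, 12 and 6 members in these comparisons by limma, and edgeR on recovered reads also called 0 in each. The smallest p in the mixture against paraquat were for Dnaja1 (log2 0.41, adjusted p = 0.145), Hspb8 (−0.63, 0.227) and Dnaja2 (0.22, 0.252). For the mixture against TiO2 they were Dnaja1 (0.42, 0.141, or 0.0448 without TiO2 library 4), Hspa8 (0.28, 0.233) and Dnajb12 (−0.26, 0.282), and for paraquat against TiO2 Dnaja4 (0.26, 0.658), Hspd1-ps3 (−0.30, 0.7) and Cryab (0.41, 0.704).

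The interaction asks whether the mixture departed from the sum of the single exposures on the log2 scale, as mixture minus paraquat minus TiO2 plus control. It was called for 11 of 68 members (16.2%), against 11.8% of all genes, 5.41% above 0 and 6.36% below. Above 0 were Dnaja1 (0.80, adjusted p = 0.00173), Dnaja2 (0.51, 0.00738), Hspa8 (0.45, 0.0247), Hspa5 (0.57, 0.0328) and Dnajc13, an endosomal J protein (0.37, 0.041). Below 0 were Bag3 (−1.55, 0.00327), Cryab (−1.17, 0.00543), Dnajb12 (−0.44, 0.0282), Dnajc16 (−0.36, 0.0355), Bag6 (−0.38, 0.0408) and Hspb8 (−0.95, 0.0425). For each of the 11 the interaction had the opposite sign to the sum of the single exposures, so that the mixture lay nearer to control than that sum. Since the control mean enters the sum and the interaction with opposite signs, part of that opposition is built into the contrast. The interactions of Dnaja1, Dnaja2, Bag3 and Cryab were called in every alternative. Each of the other 7 calls ended when single libraries were left out, and those of Dnajc13, Dnajc16, Bag6 and Hspb8 also ended with the replicate block (adjusted p = 0.0589, 0.0509, 0.0586 and 0.0578). That of Hspa8 ended without TiO2 library 1 (adjusted p = 0.0501) or mixture library 1 (0.0505), and that of Dnajb12 without paraquat library 1 or 3, TiO2 library 3, mixture library 4 or control library 1 or 3 (up to 0.0995). Those of Hspa5, Dnajc13, Dnajc16, Bag6 and Hspb8 each ended without any of 8 to 11 libraries, at adjusted p values of up to 0.0862, 0.108, 0.0866, 0.125 and 0.158, and paraquat library 1, TiO2 library 3 and mixture library 4 were among those libraries for all 5. With a GC correction 5 members were called, Dnajb14 being the addition (−0.48, adjusted p = 0.00859), and Hspa8, Hspa5, Dnajc13, Dnajb12, Dnajc16, Bag6 and Hspb8 were not among them. The Bag6 interaction was −0.07 with that correction, while that of Hspb8 was −0.83.

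**Figure D3:**
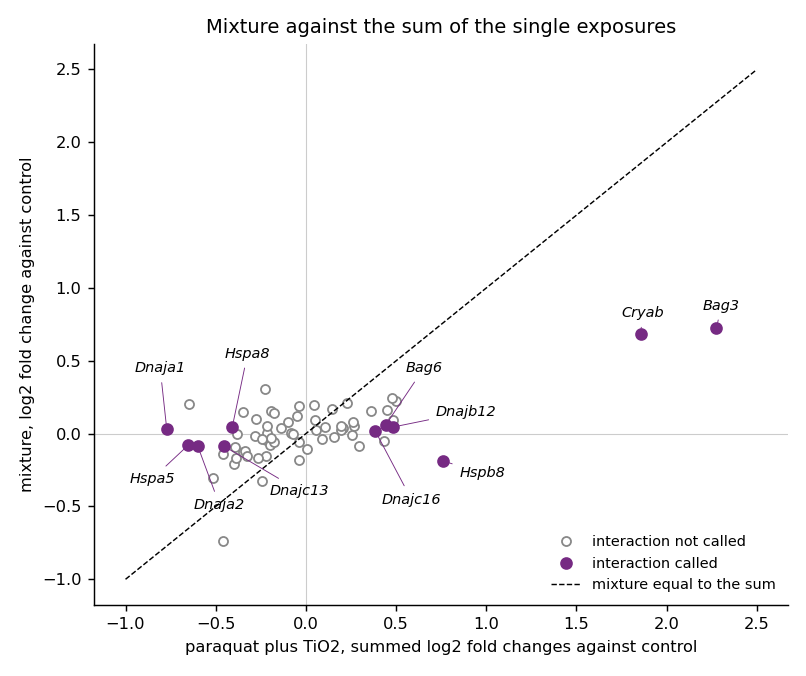
Log2 fold change of the mixture against control (vertical axis) and the sum of the paraquat and TiO2 log2 fold changes against control (horizontal axis) for the 68 members, with the 11 called interactions filled and named. Cryab and Bag3 lie far to the right and below the dashed line of equality, and Dnaja1, Dnaja2 and Hspa5 lie left of 0 and above it.

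Members leaned higher or lower with the base composition of their transcripts. Of the 26 members with a transcript GC content of 50% or more, 19 were above 0 in paraquat pups, 17 in TiO2 pups and 18 in mixture pups, and of the 42 below 50%, 30, 30 and 23 were below 0. Called risers (Cryab, Bag3, Hsp90ab1 and Dnajb12) were all in the first set and called fallers (Dnaja1 and Dnaja2) in the second. The table at large showed the same lean, where transcripts called higher after paraquat had a median GC content of 55.2% and those called lower 44.3%, with 54.3% and 43.5% after TiO2 and 49.2% over all genes. The split at 50% was chosen after the values were seen, and the cause was not tested.

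Removing a smooth GC trend from each library left medians of −0.01 for both sets after paraquat. Cryab and Bag3 kept their calls for paraquat (log2 1.03 and 1.04) and for TiO2 (0.63 and 0.97), Dnaja1 kept them at −0.25 and −0.27, and Hsp90ab1 kept its TiO2 call at 0.25. Dnaja2, Dnajb12 and the mixture call of Cryab (adjusted p = 0.0659) were lost. Dnajb14, a class B DnaJ of the endoplasmic reticulum membrane with a GC content of 42.4%, was called higher for paraquat (0.35, adjusted p = 0.00809) and TiO2 (0.38, 0.0026) with the correction, where it had missed the threshold without it (0.23 and 0.27, adjusted p = 0.137 and 0.0696, and 0.0461 for TiO2 without control library 1). Its values were 1042, 1121 and 1146 in paraquat pups, 1079, 1188, 1131 and 1159 in TiO2 pups, 935, 1244, 1109 and 1135 in mixture pups and 1080, 795, 945 and 974 in control pups. With the correction Dnajc6 was called higher and Dnajc7 lower after paraquat (0.27 and −0.26, adjusted p = 0.023 and 0.0351). Without it they stood at 0.20 and −0.25, not called by limma. Dnajc7 was also called by edgeR on recovered reads (−0.25, adjusted p = 0.0472), and it overlaps Cnp on the other strand by 8912 bases.

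**Figure D4:**
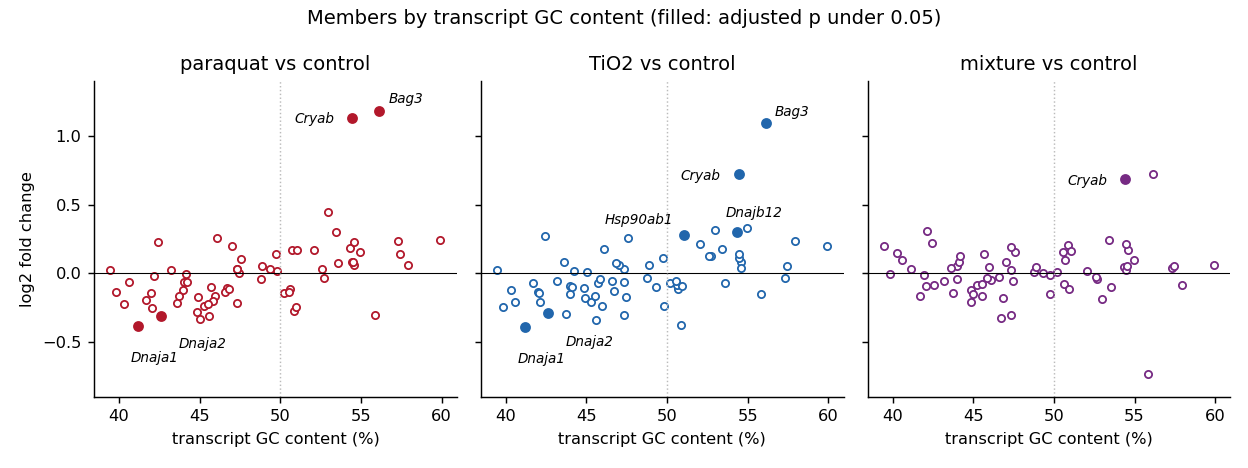
Log2 fold change against control and transcript GC content in percent of the 68 members for paraquat, TiO2 and the mixture, with called members filled and named and a dotted line at 50%. In the paraquat and TiO2 panels the points rise from left to right, and all called risers lie right of the line and both called fallers left of it.

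Levels of the members spanned over 2 orders of magnitude per kb of exon sequence, with the exons of all transcripts of a gene merged. The order depends on that length. For Dnajb6 it was 6062 bases, against 2918 in the transcript used to search for copies. In control pups Hsp90ab1 stood first at 2292 per kb, followed by Hspa5 (439), Dnajc5, the cysteine string protein of synaptic vesicles (424), Dnaja2 (414), Hspe1 (365), Hsp90b1 (349) and Bag1 (342). At the low end were Dnajb6 (7.09), Dnajc21 (7.47), Hspa12b (12.8) and Bag3 (14.3). The steadiest member over all 15 libraries was Dnajc5, whose highest value was 1.14 times its lowest, while Cryab spanned 3.15-fold, Bag3 4.49-fold and Dnajb3 5.49-fold.

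Many chaperone genes have processed copies elsewhere in the genome, and the table does not show to which copy shared reads were assigned. In the GENCODE transcripts 15 of 68 members had a pseudogene copy at 90% identity or more over at least 300 bases, and how reads that match several places were counted is not given in the sources used here. Hspa8 had 12 such copies and shared 74.8% of its 50-base windows with other genes, Hsp90aa1 4 and 58.5%, Hspd1 5 and 44.8%, Hspe1 3 and 44.8%, and Dnajb6 7 and 42.8%. Per kb, Hsp90ab1, which shared 4.49%, exceeded Hsp90aa1, the inducible HSP90, by 96.1 to 209 times over the libraries. The pseudogene Hspd1-ps3 had 2.89 to 5.91 times the value per kb of Hspd1, its parent gene. The levels of Hspa8, Hsp90aa1, Hspd1, Hspe1 and Dnajb6 and of both pseudogenes are therefore uncertain. Dnaja4 had no pseudogene copy but shared 51.9% of windows and overlapped Wdr61 on the other strand by 1581 bases, so its level is uncertain too.

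Of the called members, Bag3, Dnaja2 and Dnajb12 shared 0.0% of windows and Hsp90ab1 4.49%. Cryab had no pseudogene copy and shared 19.0% of windows, and overlapped Hspb2 on the other strand by 1030 bases. Dnaja1 had 3 pseudogene copies, shared 28.8% and overlapped Smu1 on the other strand by 608 bases. Use of strand in the counting is not given in the sources used here, so reads of overlapping genes on opposite strands may not have been told apart.

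**Figure D5:**
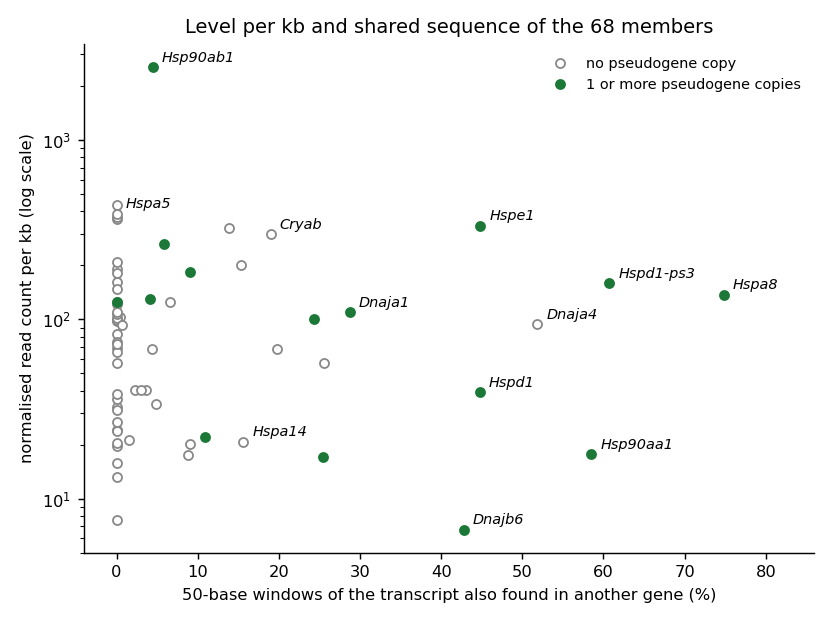
Mean normalised read count per kb over the 15 libraries (vertical, log axis) and the percent of 50-base windows of each member's transcript found in another gene (horizontal), with members that have a pseudogene copy filled. Hspa8, Hspd1-ps3 and Hsp90aa1 lie farthest right, and Hsp90ab1 stands near the left edge above all other members.

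Folding genes outside the name rule were described from a list of 54, of which 53 were in the table. The counts were 4 higher and 7 lower in paraquat pups (20.8%), 4 and 5 in TiO2 pups (17.0%) and 0 in mixture pups (by limma, with 7 at an unadjusted p under 0.05), against 10.4%, 6.4% and 1.19% of all genes. These counts and the calls below come from the main fit and were not checked with the GC correction or with libraries left out. Genes called higher had a transcript GC content of 50.4% to 59.2%, apart from Cdc37l1 (41.5%), and genes called lower 36.2% to 50.2%. After paraquat Cdc37l1, a relative of the kinase cochaperone Cdc37, was higher (0.36, adjusted p = 0.011), and the mitochondrial exchange factor Grpel2 (−0.51, 0.0143), the chaperonin subunits Cct5 (−0.31, 0.0182) and Cct6a (−0.34, 0.0207) and the import receptor Tomm70a (−0.35, 0.0197) were lower. After TiO2 Nudc (0.63, adjusted p = 0.00398), Sgta (0.46, 0.0104) and Cdc37 (0.31, 0.0283), all HSP90 or HSP70 cochaperones, were higher. The disulfide isomerase Pdia3 (−0.31, 0.0178) and the cyclophilin Ppid, itself an HSP90 cochaperone (−0.37, 0.0268), were lower. Of the genes named for TiO2, Nudc (0.50, 0.0212), Sgta (0.42, 0.0218) and Pdia3 (−0.26, 0.049) were also called after paraquat. Grpel2 (−0.41, 0.0363) and Cct5 (−0.26, 0.0312) were also called after TiO2. Of 16 HSP90 cochaperones in the list, 2 were called higher and 1 lower after TiO2, and 2 and 0 after paraquat. Of 11 HSP70 partners and regulators, 1 was called higher and 1 lower after TiO2, and 1 and 2 after paraquat. Of 8 subunits of the cytosolic chaperonin TRiC, 3 were called lower in paraquat pups, 2 in TiO2 pups and 0 in mixture pups (limma, in the last with 1 at an unadjusted p under 0.05). Hsf2, the heat shock factor of the list with a row in the table, was called lower after paraquat (−0.42, adjusted p = 0.0348 by limma). Its libraries overlapped control. It was not called for TiO2 (−0.33) or the mixture (−0.09), and its interaction of 0.66 was called.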

How the data were processed

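RNA of striatum from 15 libraries was measured after total RNA library preparation (Lexogen SENSE) and NextSeq500 sequencing, per the labels' protocols. Bowtie2 2.3.2.2, DESeq2 2.1.8.3 and mm10 are listed in the submitters' processing notes. The authors deposited 1 table of signal, whole read counts divided by a size factor per library, as read from the values (within 0.001 of whole reads in 100% of values; recovery is claimed for 11 libraries). Read counter, strand and annotation were not given in the sources used here.

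Because the table holds scaled signal, limma 3.58.1 (R 4.3.3) on log2(value + 1), with trend and robust options, replaced the planned count test. It was fitted to all 15 libraries and to the 15556 genes kept by filterByExpr of edgeR 4.0.16 (13 dropped), with Benjamini-Hochberg adjustment over all of them and calls at an adjusted p under 0.05. Fold changes on this scale understate the change of low genes. Standard errors and SDs reflect spread among libraries, which could be technical. Floors (3 reads, 1.98 to 3.25 units) cover counting error only. GENCODE M21 (GRCm38) gave transcript GC content, lengths and, with blastn 2.17.0, copies. Alternatives were a pseudocount of 5, no filter, TMM scaling, edgeR on recovered reads, only the groups compared, a GC correction (lowess, span 0.3), the replicate number as a block and leaving out each library. The test was checked on simulated data (4 false calls among 15556 genes).

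Named genes were members called in a comparison, 22 core chaperones, the called or smallest-p members between exposures, up to 5 called genes of a wider folding list per comparison and the 5 genes most like the member with the smallest p. Bag6, Dnajb3, Dnajb14, Dnajc6, Dnajc7, Hspb6, Hspb11, Dnaja3, Hsf2 and the genes at the ends of the level order were named after their values were seen. The members and lists were chosen with earlier results of these data known, and 2 genes were left out of the marker and folding lists and are not reported here.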

Additional observations from a re-analysis of the deposited data

Results flagged for a closer look

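Of 99 groups of 4 libraries tested for a sample apart, over 33 named genes, 4 were flagged (4.04%), where chance flags about 1 in 20. Hsp90b1 stood at 1330 in TiO2 library 2, with the other TiO2 libraries at 1250 to 1260. Hspd1-ps3 stood at 250.0 in control library 2, with the other controls at 280 to 286. Hspb6 stood at 187 in mixture library 3, with the other mixture libraries at 152 to 154, and Hspb11 at 59.9 in control library 2, with the other controls at 71.3 to 72.7.

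The effect of an exposure differed with and without the other exposure, by the interaction test of limma, for 11 members. The log2 interaction was 0.8 for Dnaja1, 0.51 for Dnaja2, 0.57 for Hspa5, 0.45 for Hspa8 and 0.37 for Dnajc13, with the sum of the single exposures below 0 and the mixture above that sum. Of these 5, Dnaja1 and Dnaja2 alone were called lower in the single exposures. It was −1.55 for Bag3, −1.17 for Cryab, −0.95 for Hspb8, −0.44 for Dnajb12, −0.38 for Bag6 and −0.36 for Dnajc16, with the mixture below the sum of the single exposures. All of these comparisons rest on the same 4 control libraries and the same 4 mixture libraries. Beside the interactions of Cryab and Bag3, oligodendrocyte markers had a median interaction of −1.05 (7 of 11 called below 0); its part in the result was not tested.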

How the results depend on the processing

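Counts of called members moved with the processing as follows. The GC correction gave 0 members for the mixture (1 in the report) and 5 for the interaction (11 in the report), and the fit with the replicate block gave 7 for the interaction. With that block the counts against control were 4 (paraquat), 7 (TiO2) and 1 (mixture, Bag3 in place of Cryab). Leaving out 1 library in turn gave 2 to 6 members for paraquat (2 without paraquat 1 or 3), 2 to 9 for TiO2 (2 without TiO2 3, 3 without control 4), 0 to 1 for the mixture (0 without mixture 1, 2 or 3 or control 1 or 2), 0 to 1 for the mixture against TiO2 (1 without TiO2 4), 5 to 14 for the interaction (5 without paraquat 1, TiO2 3 or mixture 4, 6 without control 4, 7 without paraquat 3, TiO2 2, mixture 2 or control 1) and 0 for the other comparisons. Pseudocount, filter, TMM scaling and edgeR on recovered reads left these counts within 1.5 times.

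For named members, 1579 recomputed log2 fold changes stayed on their side of the threshold and kept their direction or moved by less than their SE. Among them are uncalled values near 0 that changed sign, such as Dnajb1 for the mixture. Another 100 lost their call and 18 gained one. A further 4 uncalled values changed sign by at least their SE. These were Hspd1 and Hspb6 for paraquat without paraquat 3, and Bag1 for paraquat and for TiO2 with the GC correction. No called value changed sign. TMM scaling shifted the all-gene median by under 0.002 log2. Replicate numbers did not pair the libraries: same-numbered libraries correlated at 0.019 on average (−0.186 to 0.271 over 21 pairs, 8 over 0.1) and 4 libraries correlated best with their own number. Dnajb3, Bag3 and Hspb8 had low values; the part of depth in their spread was not tested.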
